A study of Homo sapiens with 58 samples.

Results

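The collagen genes were followed across all lines, media, ligands and inhibitors of a series on EGFR signaling in HaCaT cells. Members were all genes whose symbol has the form COL, a number, A and a number, apart from COL17A1, a hemidesmosome component. This rule gave 43 genes of 19775 in all, with 112 probe sets that carry 1 symbol. Where a gene has several, the probe set of highest mean over the 58 arrays (Affymetrix U133 Plus 2.0) stands for it unless another is named. The rule itself uses symbols only.

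HaCaT cells are human keratinocytes that became immortal in culture without an introduced gene. The line goes back to a single clone, and the other lines were made from it by forced expression. HaCaT-HRAS carries activated HRAS (HRAS-VAL12D in the labels), HaCaT-EGFR wild-type EGFR, HaCaT-p65 the NF-κB subunit RELA/p65, and HaCaT-vector the empty vector, named mock in the labels. Whether a line is 1 clone or a pool, and which promoter drives the introduced gene, is not given in the sources used here. In serum there were 3 arrays of HaCaT-HRAS, 5 of HaCaT-EGFR, 3 of HaCaT-p65, 3 of HaCaT-vector and 3 of HaCaT without an introduced gene. Of the 5 HaCaT-EGFR arrays, replicate 4 is labelled 4 h and replicate 5 is labelled 8 h. EGF at 10 ng/ml, after 12 h without serum, was given to HaCaT-EGFR (7 arrays, 5 after 4 h and 2 after 8 h) and to HaCaT-vector (4 arrays, all after 4 h). TNF-α at the same dose was given to HaCaT-p65 (5 arrays, 4 after 4 h and 1, replicate 2, after 8 h) and HaCaT-vector (3 arrays, all after 4 h). The serum-starved cells set against them numbered 7 arrays of HaCaT-EGFR (5 at 4 h and 2 at 8 h), 3 of HaCaT-p65 (2 at 4 h and 1 at 8 h) and 4 of HaCaT-vector (all at 4 h). A further 8 arrays held gefitinib, an inhibitor of EGFR, LY294002, an inhibitor of PI3K, or U1026 (spelled as in the labels), an inhibitor of MEK, at doses not given in the sources used here. Gefitinib was given to HaCaT-EGFR with EGF (2 arrays) and in serum (2 arrays), each with 1 array at 4 h and 1 at 8 h. LY294002 and U1026 were each given with EGF to HaCaT-EGFR (1 array) and HaCaT-vector (1 array), all at 4 h.

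Collagens are proteins of 3 chains wound into a triple helix. Most are secreted and form the scaffold of the extracellular matrix, while a few span the cell membrane. In skin the fibrillar collagens come mainly from dermal fibroblasts, while keratinocytes make basement membrane and anchoring fibril collagens and rest on the sheet they form. Type IV collagen is the network of the basement membrane, type VII anchors it to the dermis, and fibril-associated collagens decorate the surface of fibrils. Before secretion the chains are hydroxylated and folded in the endoplasmic reticulum, and proteases of the MMP family take the assembled collagen apart.

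All values are the authors' log2 values, on which 1 unit is a doubling of signal, and differences between groups are on that scale, with limma's standard error (SE). Adjusted p-values are limma's (Benjamini-Hochberg, 19775 genes), and a gene passed when its value was under 0.05. The signal of a probe set depends on its probes, so no gene's level is set against another gene's. As a background level, the 95th percentile of the values of 82 olfactory receptor genes was taken, which was 5.41. A difference against a group below that level is given as fitted and is no measure of fold. Whether groups were apart was looked at only among genes that passed. No share over all genes is thus given beside it. Nothing in the sources says whether replicates come from separate cultures, and the p-values thus cover the spread between these arrays alone. On bulk RNA fewer cells of a type and less RNA per cell cannot be told apart.

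The keratinocyte markers KRT5, KRT14, CDH1, DSG3 and SFN stood above background in all 58 arrays. Of 10 fibroblast markers, FBLN1 was above background in all 58 arrays, LUM in 32, THY1 in 29, DCN in 27, PDGFRA in 6, PDGFRB in 5 and FAP, TCF21, MFAP4 and FBN1 in none. Of 6 endothelial markers, PECAM1 and CLDN5 were above it in 37 arrays each, CDH5 in 3, VWF in 1 and KDR and TIE1 in none. Of 4 melanocyte markers PMEL was above it in 34 arrays and MLANA, TYR and TYRP1 in none, and of 4 leukocyte markers TYROBP in 1 array and PTPRC, CD3E and CD14 in none. The array medians ranged from 4.98 to 5.24, and no pair of arrays was identical, the highest correlation being 0.998. The arrays fall on 6 processing dates, and all 17 serum arrays without inhibitors share 1 date apart from 2 of HaCaT-EGFR. One TNF-α array of HaCaT-p65, replicate 5, has a second description as a control and stayed in its TNF-α group.

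Of the 43 collagen genes, 10 were above the background level in every array, 28 in at least 1 array and 15 in none. The 10 were COL1A1 of type I fibrils, the fibrillar COL27A1, COL4A1, COL4A2, COL4A5 and COL4A6 of the basement membrane, COL7A1 of the anchoring fibrils, COL9A3 and COL12A1 of the fibril-associated class and COL18A1, the precursor of endostatin. COL1A1 is read here from the brightest of its 5 probe sets, and its partner chain COL1A2 was above background in 3 arrays only. Some of the 10 genes varied little. COL7A1 ranged from 6.49 to 7.45 and COL1A1 from 6.42 to 7.33 over all 58 arrays, and neither passed the test in any comparison. The widest spread was that of COL4A4, with an SD of 1.43 over the 58 arrays, followed by COL3A1 with 1.15.

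**Figure D1:**
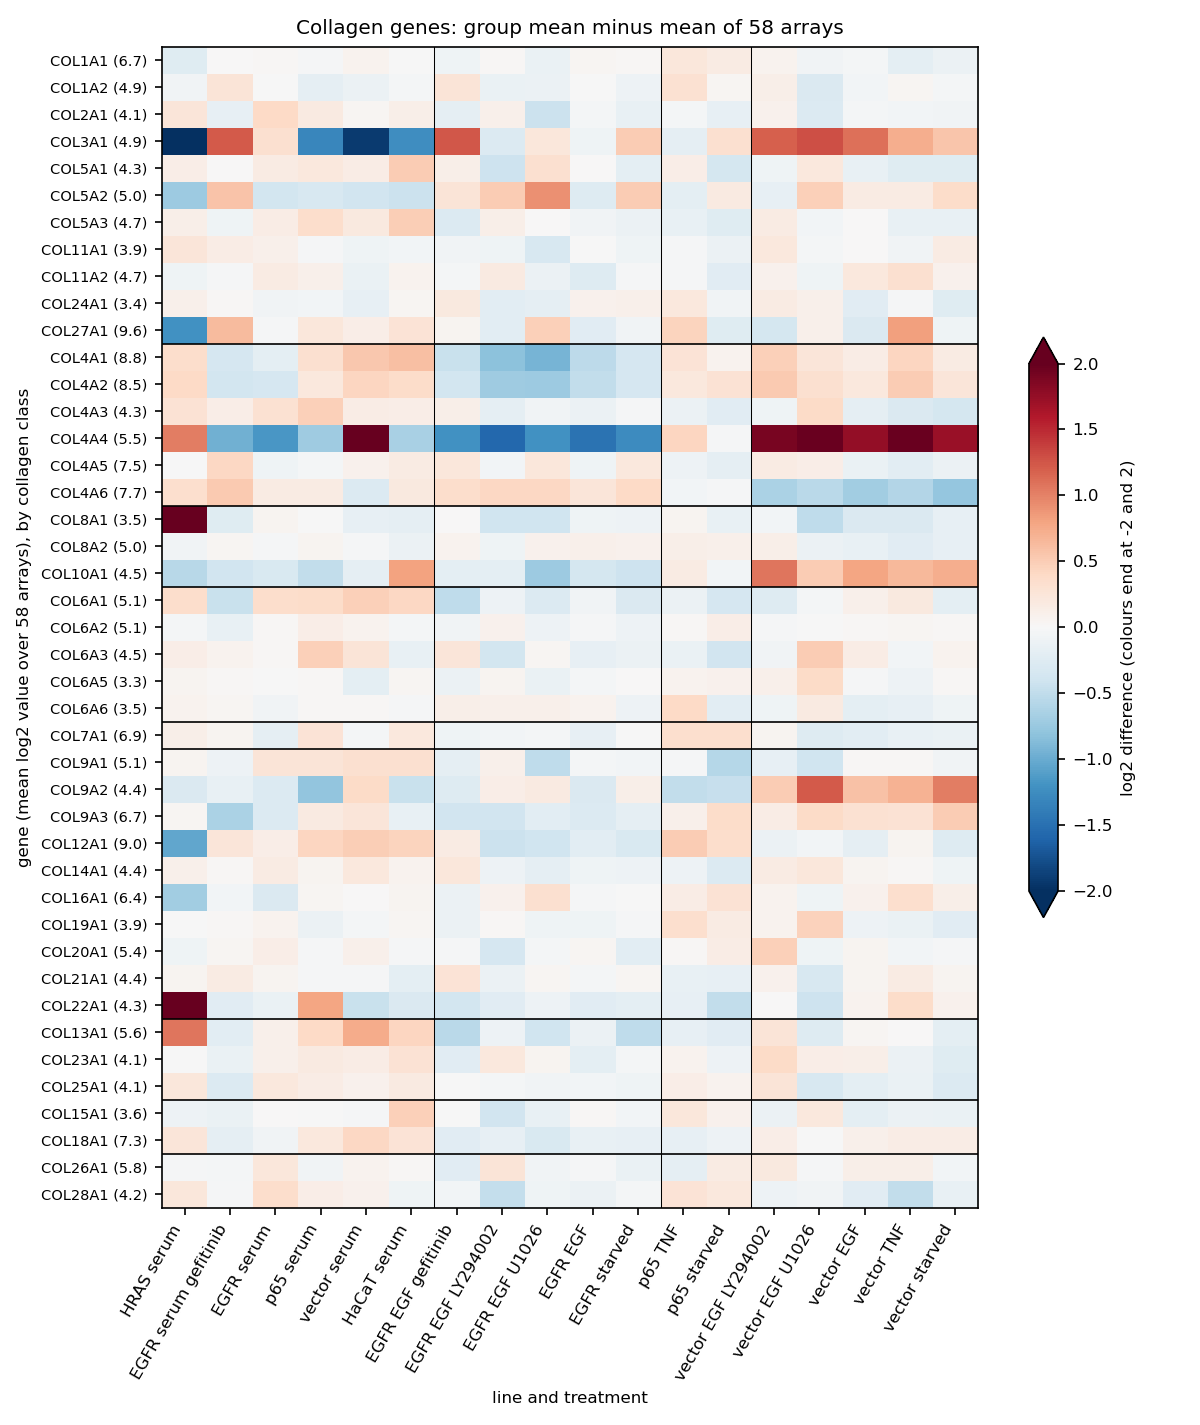
Log2 difference of each group's mean from the mean of all 58 arrays, for the 43 collagen genes (rows, grouped by collagen class, with the mean log2 value in brackets) in 18 groups of arrays (columns, grouped by medium and line). Colours end at -2 and 2, and the strongest blocks are COL8A1 and COL22A1 in HaCaT-HRAS, COL4A4 in all HaCaT-vector groups, and COL3A1, which is low in 4 of the 5 serum lines.

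In 22 comparisons the 43 genes gave 946 tests, of which 44 passed. Comparisons between lines held 38 of these, from 14 genes in 9 comparisons, and comparisons of medium, ligand or inhibitor held 6, from 3 genes in 13 comparisons. Of all genes, too, more passed between lines, from 2.87% to 18.2% by comparison, than in the other comparisons, from 0% to 8.8%. The split of the collagen calls is thus not read as a trait of collagens. In all, 15 genes passed somewhere and 28 nowhere. Of the calls, 39 fell on genes with more than 1 probe set, and in 17 of these a second probe set passed in the same direction, while in 0 one passed in the opposite direction.

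HaCaT-HRAS was first set against HaCaT-vector, both in serum, and 8 of the 43 collagen genes passed (18.6%), against 18.2% of all genes, so the share of collagens was that of the background. COL8A1, COL22A1 and COL4A6 rose, against 9.57% of all genes called higher. COL12A1, COL4A4, COL27A1, COL16A1 and COL9A2 fell, against 8.63% of all genes called lower. The median difference was -0.08 over the collagen genes and -0.04 over all genes.

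COL8A1, a chain of the short-chain network collagen of vessel walls and the cornea, had log2 values of 5.32, 5.91 and 6.16 in HaCaT-HRAS, against 3.38, 3.30 and 3.38 in HaCaT-vector. The groups were far apart, and the 55 arrays outside HaCaT-HRAS in serum lay at or below 3.83, none above background, while 1 of the 3 HaCaT-HRAS arrays was also below it. The difference was 2.45 (SE 0.14, adjusted p = 1.49e-17). A second probe set rose by 0.58 (adjusted p = 0.0133 over probe sets) and the third differed by -0.18. Its partner chain COL8A2 differed by -0.06.

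COL22A1, a fibril-associated collagen of tissue junctions, had 6.48, 6.06 and 6.50 in HaCaT-HRAS, against 3.80, 3.86 and 4.06 in HaCaT-vector (difference 2.44, SE 0.19, adjusted p = 1.64e-13). HaCaT-HRAS held the only arrays of the series above background for this gene. Its other probe sets differed by 0.31 and 0.15.

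COL12A1, which coats collagen fibrils in tissues under tension, stayed well above background in every line but had 7.42, 7.91 and 8.54 in HaCaT-HRAS, against 9.42, 9.34 and 9.70 in HaCaT-vector. All 3 HaCaT-HRAS arrays lay below all HaCaT-vector arrays, with a difference of -1.53 (SE 0.21, adjusted p = 1.99e-07). Of its 5 probe sets 4 passed, at -1.53, -1.64, -1.87 and -2.13, and the fifth differed by -0.54.

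COL27A1, a fibrillar collagen known from cartilage, had 8.32, 8.14 and 8.61 in HaCaT-HRAS, against 9.82, 9.46 and 9.80 in HaCaT-vector. The groups did not overlap, and the difference was -1.34 (SE 0.14, adjusted p = 9.82e-10). It passed in 3 of 5 probe sets, at -0.79, -1.34 and -1.45.

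The basement membrane chain COL4A4 had 5.87, 6.50 and 7.11 in HaCaT-HRAS, against 7.96, 7.78 and 7.87 in HaCaT-vector (difference -1.38, SE 0.36, adjusted p = 0.00401). The groups were apart, but without HaCaT-HRAS replicate 1 the difference was -1.07 and no longer passed. COL16A1, a collagen near the basement membrane that joins fibrils to other matrix, had 6.08, 5.84 and 5.30 in HaCaT-HRAS, against 6.61, 6.31 and 6.44 in HaCaT-vector (difference -0.72, SE 0.17, adjusted p = 0.00147). The last HaCaT-HRAS array was below the background level.

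COL4A6, a chain of epithelial basement membranes, averaged 8.05 ± 0.20 in HaCaT-HRAS and 7.43 ± 0.07 in HaCaT-vector (SD, n = 3 each), a difference of 0.62 (adjusted p = 0.00244). Its 3 probe sets all rose, and 1 passed over probe sets. COL9A2, a chain of the type IX collagen that covers cartilage fibrils, averaged 4.13 ± 0.16 in HaCaT-HRAS and 4.80 ± 0.12 in HaCaT-vector, below background in both (difference -0.67, adjusted p = 0.0271). Without any 1 of HaCaT-HRAS replicate 1, HaCaT-HRAS replicate 2, HaCaT-vector replicate 2 or HaCaT-vector replicate 3 it no longer passed, with differences from -0.59 to -0.69. Of the partner chains, COL4A1 differed by -0.19, COL4A2 by -0.03, COL9A1 by -0.27 and COL9A3 by -0.20, none of which passed.

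**Figure D2:**
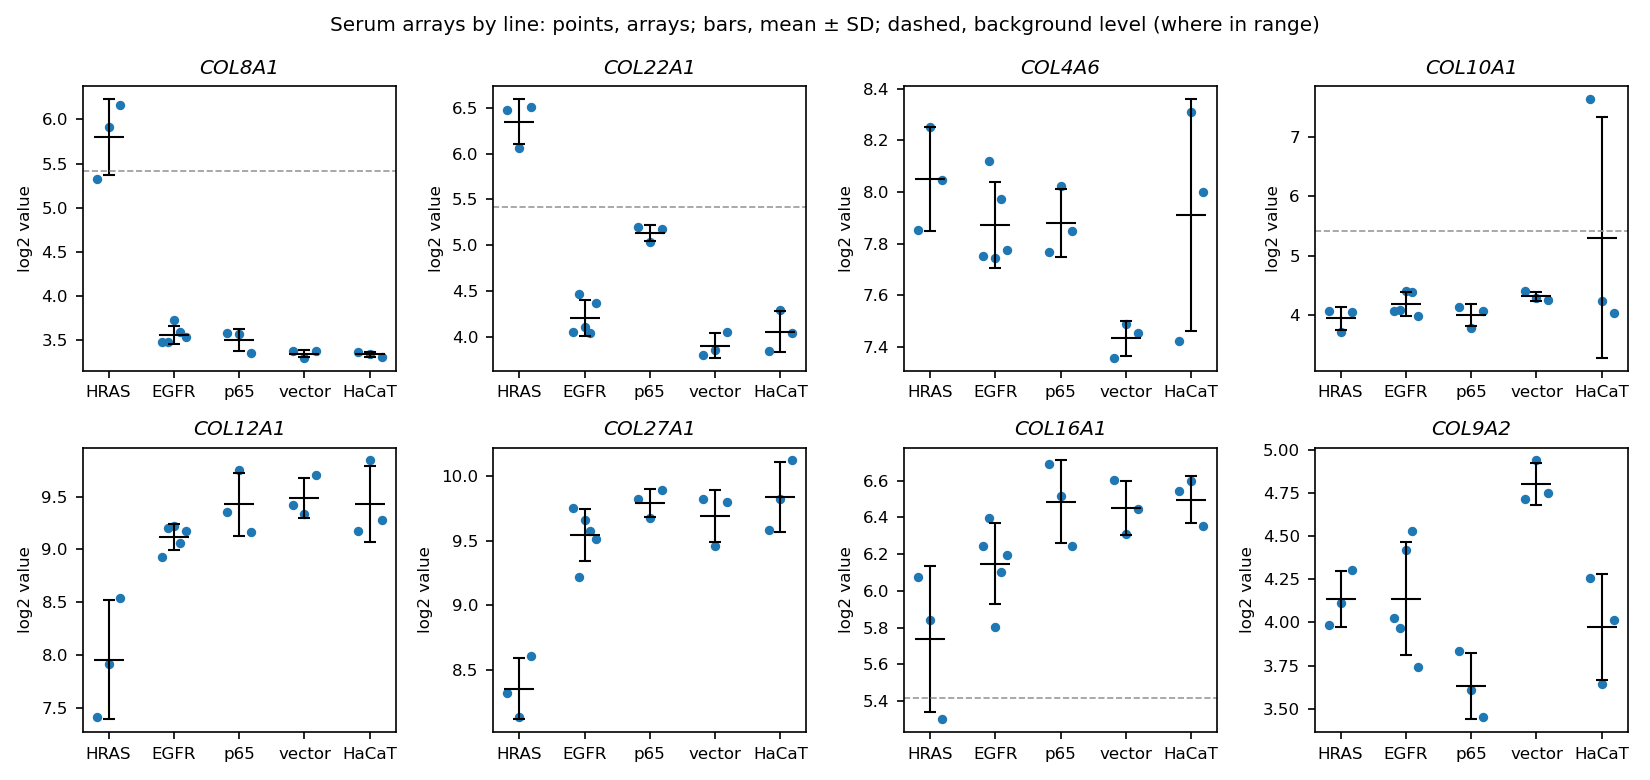
Log2 values (vertical axes, each panel with its own range) of 8 collagen genes in the 5 lines in serum (horizontal axes), with arrays as points, mean ± SD as bars and the background level of 5.41 dashed where it lies in range. COL8A1 is high only in the 3 HaCaT-HRAS arrays, COL12A1 and COL27A1 are low there, and a single HaCaT array carries COL10A1 at 7.64.

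Genes that modify, bind or degrade collagen were counted in the same comparison. Of 17 genes for hydroxylation and folding, 1 rose, 5 fell and 11 did not pass. P3H2, which hydroxylates proline mainly in basement membrane collagen, fell to 8.73 ± 0.26 in HaCaT-HRAS, against 11.59 ± 0.06 in HaCaT-vector (difference -2.86, adjusted p = 3.39e-11). The collagen chaperone SERPINH1 fell by 0.81 (adjusted p = 5.27e-04). Of 13 genes for processing and crosslinking 2 rose, 2 fell and 9 did not pass, with the largest differences in ADAMTS3, a procollagen peptidase, at 1.35 (adjusted p = 2.37e-04) and PCOLCE2, an enhancer of procollagen cleavage, at -1.23 (adjusted p = 1.74e-04). ADAMTS3 was above background in no array of the series, its highest value being 5.21. Among 10 receptors, the integrin chain ITGA1 rose to 6.04 ± 0.11 in HaCaT-HRAS, against 4.17 ± 0.18 in HaCaT-vector (difference 1.86, adjusted p = 4.19e-11), and the uptake receptor MRC2 fell by 1.31 (adjusted p = 8.43e-09). Among 7 collagen-degrading proteases 1 rose, the interstitial collagenase MMP1.

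Cell type markers moved with this comparison too. Of the 5 keratinocyte markers 3 fell, KRT14 by 2.33, and their summed level ranged from 13.42 to 13.76 in HaCaT-HRAS and from 14.41 to 14.69 in HaCaT-vector (log2 of the summed signal). Of the 6 endothelial markers CDH5 rose, to between 8.55 and 8.73 in HaCaT-HRAS, against between 4.34 and 4.40 in HaCaT-vector. Their summed level ranged from 9.03 to 9.18 in HaCaT-HRAS and from 7.39 to 7.56 in HaCaT-vector. The part of the markers in the collagen values was not tested.

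HaCaT-HRAS was also set against HaCaT without an introduced gene, with the same HaCaT-HRAS arrays. There 7 collagen genes passed (16.3%), against 17.7% of all genes. COL8A1 at 2.46 (SE 0.14, adjusted p = 1.32e-17) and COL22A1 at 2.29 (SE 0.19, adjusted p = 1.16e-12) rose. COL27A1 at -1.49 (SE 0.14, adjusted p = 6.98e-11), COL12A1 at -1.47 (SE 0.21, adjusted p = 4.98e-07) and COL16A1 at -0.76 (adjusted p = 7.77e-04) fell. COL4A4 rose by 1.67 (SE 0.36, adjusted p = 4.91e-04) here, opposite in sign to its difference from HaCaT-vector, and its HaCaT-HRAS values of 5.87, 6.50 and 7.11 overlapped those of HaCaT, which were 4.19, 4.25 and 6.02. Over probe sets, 1 of 3 passed here for each of COL8A1, COL22A1 and COL4A4, with 2 of 3 in the same direction. For COL27A1 3 of 5 passed and for COL12A1 4 of 5. Cell type markers moved here as well. Of the 5 keratinocyte markers 4 fell, and their summed level ranged from 13.42 to 13.76 in HaCaT-HRAS and from 14.67 to 15.07 in HaCaT. The endothelial marker CDH5 rose by 4.52, and the summed level of the 6 ranged from 9.03 to 9.18 in HaCaT-HRAS and from 7.18 to 7.55 in HaCaT. Of the 10 fibroblast markers LUM (-3.76) and DCN (-0.86) fell, and their summed level ranged from 9.36 to 9.46 in HaCaT-HRAS and from 9.76 to 10.18 in HaCaT. Their part in the collagen values was not tested.

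COL10A1, the short-chain collagen of hypertrophic cartilage, passed as well (difference -1.36, SE 0.43, adjusted p = 0.0220) on the strength of 1 array. Its values were 4.07, 3.72 and 4.05 in HaCaT-HRAS, against 7.64, 4.23 and 4.04 in HaCaT. Without HaCaT replicate 1 the difference was -0.19, and it also lost its call without HaCaT-HRAS replicate 2, at -1.24. Both COL10A1 probe sets gave the same direction, at -1.36 and -1.72.

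The type IV genes lie in head-to-head pairs. The stretch between COL4A1 and COL4A2 is shown because both genes fell in HaCaT-EGFR, and the 250 bases before COL4A6 because this gene passed in 3 comparisons between lines. In each of those comparisons 1 of the 3 COL4A6 probe sets passed. COL4A1 and COL4A2 are transcribed in opposite directions from a shared stretch of 126 bases at chr13:110307158-110307283 (GRCh38.p14, plus strand). COL4A6 and COL4A5 are separated by 379 bases, of which chrX:108439459-108439708 (minus strand) precedes the outer start of COL4A6. Both stretches lie between the annotated genes. Sequences and gene starts are from RefSeq, with CCAAT boxes (CCAAT, or ATTGG on the other strand) and GC boxes (GGGCGG) in capitals.
COL4A1-COL4A2: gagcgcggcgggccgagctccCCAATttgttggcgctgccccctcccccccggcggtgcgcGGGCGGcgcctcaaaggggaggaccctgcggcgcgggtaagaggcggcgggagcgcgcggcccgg
COL4A6: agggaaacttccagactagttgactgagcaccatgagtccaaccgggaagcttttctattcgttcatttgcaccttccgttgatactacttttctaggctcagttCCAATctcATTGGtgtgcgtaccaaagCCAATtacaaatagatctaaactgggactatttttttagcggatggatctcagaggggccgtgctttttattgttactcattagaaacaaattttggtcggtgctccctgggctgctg
The stretch shared by COL4A1 and COL4A2 is 80.2% G and C and holds 1 CCAAT box and 1 GC box, searched on both strands. The COL4A6 stretch is 44% G and C and holds 3 CCAAT boxes and no GC box. Of 34943 RefSeq upstream regions of 250 bases, 32% hold a CCAAT box and 42.5% a GC box. Neither stretch holds a TATA box (TATAAA, in 10.8% of all regions), an AP-1 site (TGANTCA, in 6.59%) or an NF-κB consensus (in 5.2%). These shares are for 250 bases and cannot be set directly against the COL4A1-COL4A2 stretch, which is shorter at 126 bases.

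When HaCaT-EGFR was set against HaCaT-vector, both in serum, 6 collagen genes passed (14%), against 7.87% of all genes. COL3A1 rose, against 3.97% of all genes called higher. COL4A4, COL4A2, COL4A1, COL9A3 and COL18A1 fell, against 3.9% of all genes called lower, so the type IV pair fell together. The median difference was -0.05 over the collagen genes and -0.001 over all genes.

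COL4A1, a chain of the main basement membrane network, had 8.73, 8.34, 8.60, 8.57 and 8.54 in HaCaT-EGFR, against 9.54, 9.35 and 9.02 in HaCaT-vector (difference -0.74, SE 0.16, adjusted p = 0.00106). Its partner COL4A2 had 8.43, 7.87, 8.19, 8.18 and 8.14 in HaCaT-EGFR, against 9.02, 9.01 and 8.77 in HaCaT-vector (difference -0.77, SE 0.16, adjusted p = 6.77e-04). Every HaCaT-EGFR array was below every HaCaT-vector array for both genes. Each gene has 2 probe sets, which both fell, but only 1 of them passed with p-values adjusted over probe sets. Against HaCaT without an introduced gene, these 2 were the genes of 43 that passed (4.65%, against 3.88% of all genes), COL4A1 at -0.81 (adjusted p = 9.05e-04) and COL4A2 at -0.71 (adjusted p = 0.00386). In that comparison COL4A2 lost its call without HaCaT replicate 2 (-0.59) or HaCaT-EGFR replicate 2 (-0.56), and neither gene passed when only the arrays compared were fitted. Over probe sets, 2 of 2 passed there for COL4A1 and 1 of 2 for COL4A2. The keratinocyte markers KRT14 (-0.90) and KRT5 (-0.74) fell there too, with the summed level of the 5 from 14.15 to 14.47 in HaCaT-EGFR and from 14.67 to 15.07 in HaCaT. The fibroblast marker LUM fell by 4.06, with the summed level of the 10 from 9.12 to 9.27 in HaCaT-EGFR and from 9.76 to 10.18 in HaCaT. Their part in the collagen values was not tested.

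COL4A4 had 4.45, 4.09, 4.38, 4.00 and 4.62 in HaCaT-EGFR, against 7.96, 7.78 and 7.87 in HaCaT-vector. The difference, -3.56 (SE 0.36, adjusted p = 1.31e-09), is that between no array above background and all 3. A second of its 3 probe sets passed at -1.93 and the third differed by 0.02. The chains COL4A3 at 0.15 and COL4A5 at -0.17 did not pass. COL4A6 differed by 0.44 (adjusted p = 0.0716). With the replicate number as a block over all arrays, the same difference passed (adjusted p = 0.0323). Number 1 holds 3 HaCaT-EGFR arrays and 1 HaCaT-vector array, so the block does not match these arrays in pairs.

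COL9A3, a chain of type IX collagen, averaged 6.44 ± 0.11 in HaCaT-EGFR (SD, n = 5) and 6.96 ± 0.02 in HaCaT-vector (n = 3), a difference of -0.51 (SE 0.11, adjusted p = 0.00113). Its partner COL9A2 differed by -0.66 (adjusted p = 0.0547). COL18A1, a collagen of basement membranes, averaged 7.23 ± 0.08 in HaCaT-EGFR and 7.71 ± 0.03 in HaCaT-vector, a difference of -0.49 (SE 0.11, adjusted p = 0.00276). Its 2 probe sets both fell, and 1 of them passed over probe sets.

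COL3A1, a fibrillar collagen of dermis and vessels, had 5.17, 5.23, 5.13, 5.06 and 5.29 in HaCaT-EGFR, against 3.68, 2.47 and 2.67 in HaCaT-vector (difference 2.24, SE 0.53, adjusted p = 0.00318). No array of either group reached the background level of 5.41. The other 4 probe sets of the gene differed by between -0.05 and 0.24, so the call rests on this probe set.

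Around the collagens, LOXL2, a crosslinking lysyl oxidase, fell to 4.63 ± 0.34 in HaCaT-EGFR, against 6.43 ± 0.38 in HaCaT-vector (difference -1.80, adjusted p = 2.00e-08), and PCOLCE2 rose by 1.63 (adjusted p = 6.15e-06). They were the 2 of 13 processing genes that passed. Of 17 hydroxylation and folding genes 2 fell, P3H2 by 0.89 and SERPINH1 by 0.72. ITGA1 was the 1 of 10 receptors that rose, by 0.69 (adjusted p = 0.00709), with both groups below background. Only 3 arrays of the series were above it for ITGA1, those of HaCaT-HRAS. Of 7 proteases MMP1 rose, by 2.17, and the collagenase MMP13 (-1.57) and the gelatinase MMP2 (-0.55) fell. KRT14, the 1 of 5 keratinocyte markers that passed, fell by 0.72, and the summed level of the 5 ranged from 14.15 to 14.47 in HaCaT-EGFR and from 14.41 to 14.69 in HaCaT-vector. FBN1, the 1 of 10 fibroblast markers that passed, rose by 0.82 though above background in no array, and the summed level of the 10 ranged from 9.12 to 9.27 in HaCaT-EGFR and from 9.24 to 9.57 in HaCaT-vector. Their part in the collagen values was not tested.

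When HaCaT-p65 was set against HaCaT-vector, both in serum, 3 collagen genes passed (6.98%), against 7.18% of all genes. COL22A1 rose, with 5.20, 5.04 and 5.18 in HaCaT-p65, against 3.80, 3.86 and 4.06 in HaCaT-vector (difference 1.23, SE 0.19, adjusted p = 8.70e-06). The groups were apart, but all 6 arrays were below background, and the other probe sets differed by 0.29 and 0.28. It was also the 1 gene that passed in HaCaT-p65 over HaCaT without an introduced gene (2.33%, against 5.94% of all genes), at 1.08 (SE 0.19, adjusted p = 1.21e-04). Its 3 probe sets all rose in that comparison, and 1 passed over probe sets. There the fibroblast marker LUM rose by 2.14, DCN (-0.78) and FBN1 (-0.66) fell, and the summed level of the 10 ranged from 10.64 to 10.74 in HaCaT-p65 and from 9.76 to 10.18 in HaCaT. The keratinocyte marker KRT5 fell by 1.14, with the summed level of the 5 from 14.31 to 14.52 in HaCaT-p65 and from 14.67 to 15.07 in HaCaT. Their part in the collagen values was not tested.

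COL4A4 had 4.92, 4.98 and 4.34 in HaCaT-p65, against 7.96, 7.78 and 7.87 in HaCaT-vector, without overlap (difference -3.12, SE 0.36, adjusted p = 3.62e-08). COL9A2 had 3.83, 3.61 and 3.45 in HaCaT-p65, against 4.71, 4.94 and 4.75 in HaCaT-vector, all below background (difference -1.17, SE 0.22, adjusted p = 2.26e-04). Of its 2 probe sets only 1 fell, and the other did not pass. The partners COL4A1 and COL4A2 differed by -0.22 each and COL9A3 by -0.05, and none passed.

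The hydroxylation, folding and processing enzymes that passed in HaCaT-p65 all rose. These were 3 of 17 hydroxylation and folding genes, with P4HA2, a prolyl hydroxylase chain, at 0.83 (adjusted p = 1.00e-06), and 3 of 13 processing genes, with LOX at 1.32 (adjusted p = 0.00124), PCOLCE2 at 1.19 (adjusted p = 7.90e-04) and LOXL1 at 0.82 (adjusted p = 0.0231). LUM, which codes for the collagen-binding proteoglycan lumican and stands among the fibroblast markers, rose to 10.03 ± 0.07 in HaCaT-p65, against 4.66 ± 0.33 in HaCaT-vector. LUM was the 1 of 10 fibroblast markers that passed, and 9 did not. The summed level of the 10 ranged from 10.64 to 10.74 in HaCaT-p65 and from 9.24 to 9.57 in HaCaT-vector. The part of LUM in the collagen values was not tested.

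HaCaT-vector over HaCaT without an introduced gene compares the empty vector line with its parent. Of the 43 genes 3 rose (6.98%), against 2.87% of all genes called in either direction and 1.23% called higher. When only the arrays compared were fitted, none of these genes passed. COL4A4 had 7.96, 7.78 and 7.87 in HaCaT-vector, against 4.19, 4.25 and 6.02 in HaCaT, without overlap (difference 3.05, SE 0.36, adjusted p = 2.27e-07). The SD of COL4A4 was 1.04 in HaCaT and 0.09 in HaCaT-vector, while the SE draws on the spread of all groups. All 16 HaCaT-vector arrays of the series, in every medium, lay between 6.95 and 7.96 for this gene. The 25 HaCaT-EGFR arrays lay between 3.34 and 4.75, none above background, and the 11 HaCaT-p65 arrays between 4.34 and 6.47, with 5 above it. The differences of COL4A4 from HaCaT-vector given for 3 lines share these same HaCaT-vector arrays.

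COL9A2 had 4.71, 4.94 and 4.75 in HaCaT-vector, against 4.26, 3.65 and 4.01 in HaCaT (difference 0.83, adjusted p = 0.0255), and COL9A3 had 6.95, 6.94 and 6.98 in HaCaT-vector, against 6.72, 6.42 and 6.59 in HaCaT (difference 0.38, adjusted p = 0.0477). The groups were apart for both. Each call was lost without any 1 of HaCaT-vector replicates 1, 2 and 3 or HaCaT replicates 2 and 3, with COL9A2 then between 0.66 and 0.87 and COL9A3 between 0.30 and 0.39. Of the fibroblast markers LUM fell by 3.23 and FBN1 by 0.70, and the summed level of the 10 ranged from 9.24 to 9.57 in HaCaT-vector and from 9.76 to 10.18 in HaCaT. Their part in the collagen values was not tested.

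**Figure D3:**
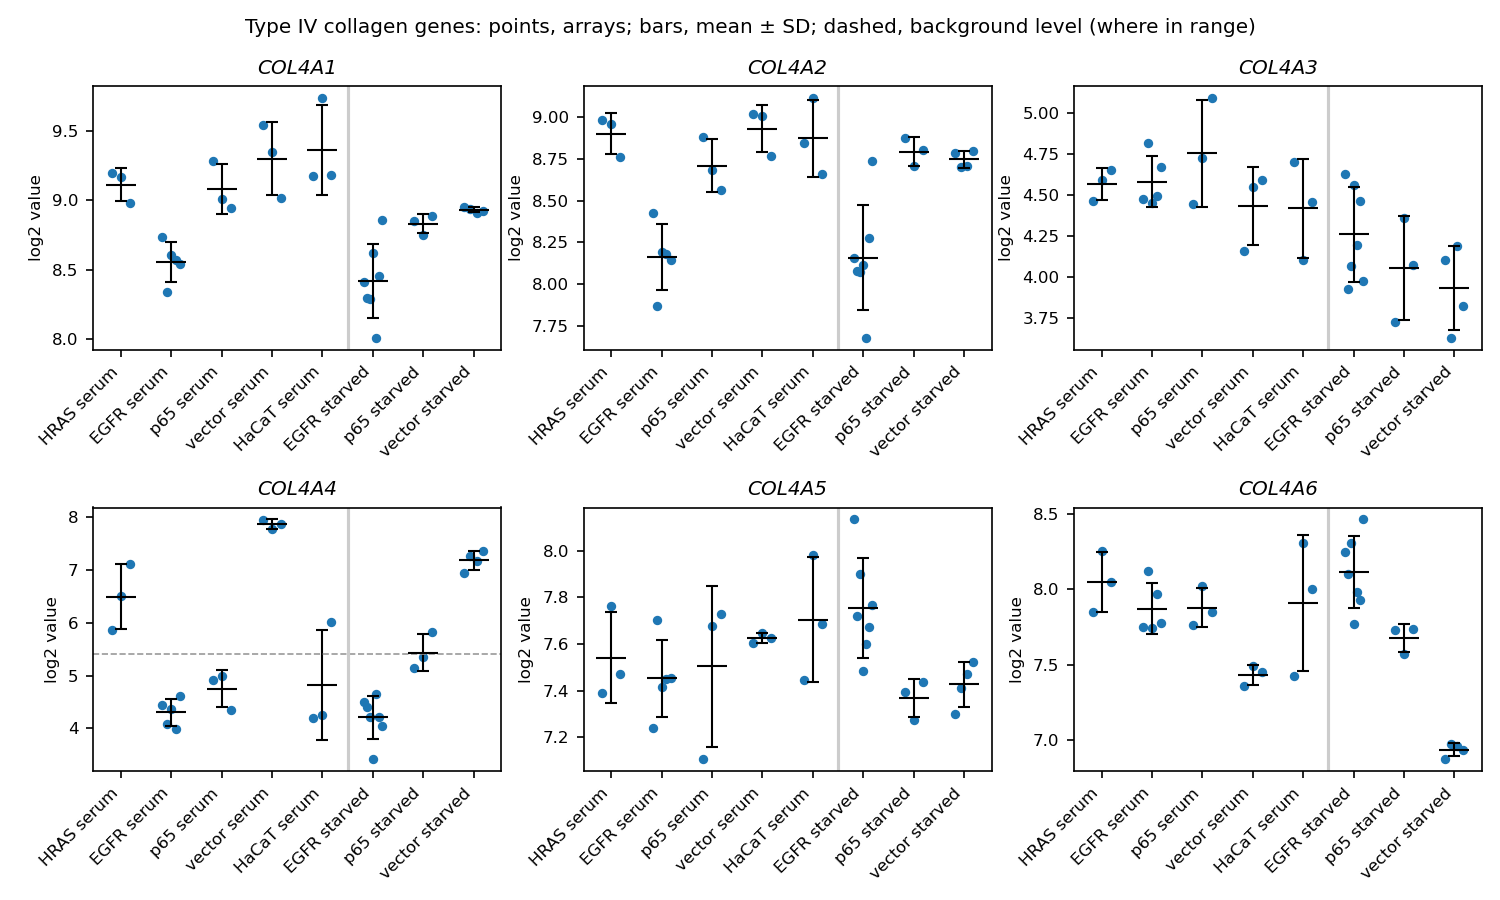
Log2 values (vertical axes, each panel with its own range) of the 6 type IV collagen genes in the 5 lines in serum and, right of the grey line, in the 3 serum-starved lines (horizontal axes), with arrays as points, mean ± SD as bars and the background level of 5.41 dashed where it lies in range. COL4A1 and COL4A2 are low in HaCaT-EGFR, COL4A4 is high in HaCaT-vector, and COL4A6 is lowest in starved HaCaT-vector, between 6.87 and 6.97.

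The lines were compared again without serum. In starved HaCaT-EGFR over starved HaCaT-vector 5 collagen genes passed (11.6%), against 7.89% of all genes, with 1 higher (3.95% of all genes) and 4 lower (3.94% of all genes). COL4A6 ranged from 7.77 to 8.46 with a median of 8.10 in HaCaT-EGFR (n = 7), against 6.87, 6.97, 6.96 and 6.93 in HaCaT-vector. The groups were far apart, with a difference of 1.18 (SE 0.17, adjusted p = 6.37e-06). In COL4A6 1 of 3 probe sets passed, and the others differed by 0.89 and 0.42.

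COL4A4 ranged from 3.42 to 4.65 with a median of 4.22 in HaCaT-EGFR, against 6.95, 7.26, 7.17 and 7.37 in HaCaT-vector (difference -2.98, SE 0.41, adjusted p = 1.51e-06). COL9A2 averaged 4.54 ± 0.37 in HaCaT-EGFR (SD, n = 7) and 5.45 ± 0.24 in HaCaT-vector (n = 4) (difference -0.91, SE 0.25, adjusted p = 0.0158). COL9A3 averaged 6.54 ± 0.12 in HaCaT-EGFR and 7.22 ± 0.05 in HaCaT-vector (difference -0.69, SE 0.13, adjusted p = 1.73e-04). Each of these genes, already picked by passing, was apart between the lines.

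COL4A2 ranged from 7.68 to 8.74 with a median of 8.12 in starved HaCaT-EGFR, against 8.79, 8.70, 8.71 and 8.80 in HaCaT-vector, with overlap (difference -0.59, SE 0.18, adjusted p = 0.0336). COL4A1 differed by -0.51 (adjusted p = 0.0800). HaCaT-vector replicate 4 is the only starved HaCaT-vector array that shares a date with starved HaCaT-EGFR arrays. Against that array alone the 3 HaCaT-EGFR arrays of the date gave 1.19 for COL4A6, -3.06 for COL4A4, -1.04 for COL9A2, -0.70 for COL9A3 and -0.57 for COL4A2. Without it, COL4A2 (-0.51), COL9A2 (-0.60) and COL9A3 (-0.61) no longer passed. COL4A2 also lost its call without HaCaT-vector replicate 1 (-0.58) or HaCaT-EGFR replicate 5 (-0.44), and COL9A2 without HaCaT-EGFR replicate 6 (-0.72).

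The lysyl oxidases LOXL2 (-2.88, adjusted p = 7.75e-12), LOXL1 (-1.71) and LOXL4 (-1.22) fell in starved HaCaT-EGFR, and of the 13 processing genes 1 rose and 4 fell. The collagenase MMP13 was the 1 of 7 proteases that passed, at 5.89 ± 0.37 in HaCaT-EGFR and 9.38 ± 0.38 in HaCaT-vector (difference -3.49). LUM fell by 2.61, the 1 of 10 fibroblast markers that passed, and the summed level of the 10 ranged from 9.05 to 9.40 in HaCaT-EGFR and from 9.86 to 10.01 in HaCaT-vector. Its part in the collagen values was not tested.

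In starved HaCaT-p65 over starved HaCaT-vector, whose arrays share no date, 3 collagen genes passed (6.98%), against 5.3% of all genes. COL4A6 had 7.73, 7.57 and 7.74 in HaCaT-p65, against 6.87, 6.97, 6.96 and 6.93 in HaCaT-vector (difference 0.74, SE 0.21, adjusted p = 0.0283). COL4A4 had 5.14, 5.35 and 5.82 in HaCaT-p65, against 6.95, 7.26, 7.17 and 7.37 in HaCaT-vector (difference -1.75, SE 0.49, adjusted p = 0.0269). COL9A2 had 3.77, 4.08 and 4.02 in HaCaT-p65, against 5.10, 5.54, 5.52 and 5.62 in HaCaT-vector (difference -1.49, SE 0.30, adjusted p = 0.00133). Over probe sets 1 of 3 passed for COL4A6, 2 of 3 for COL4A4 and 1 of 2 for COL9A2. Each of these genes, already picked by passing, was apart between the lines. All 3 lost the call without HaCaT-vector replicate 4, at 0.74, -1.43 and -1.19 for COL4A6, COL4A4 and COL9A2. COL4A6 also lost it without HaCaT-p65 replicate 1 (0.72) or 3 (0.70), and COL4A4 without HaCaT-p65 replicate 1 (-1.60) or 2 (-1.71). Of the fibroblast markers DCN fell by 1.28 and FBLN1 by 0.90, 0 rose and 8 did not pass. The summed level of the 10, which weighs the brightest markers most, ranged from 10.16 to 10.46 in HaCaT-p65 and from 9.86 to 10.01 in HaCaT-vector. Their part in the collagen values was not tested.

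Serum over starvation gave 1 call among the collagen genes over 3 lines. In HaCaT-EGFR limma called 0 of 43 genes (0%, against 3.25% of all genes), with 4 at an unadjusted p under 0.05, and in HaCaT-vector 0 (0%, against 0.976% of all genes), with 3 at an unadjusted p under 0.05. The median difference was above that of all genes in both, at 0.10 against -0.0008 in HaCaT-EGFR and 0.15 against 0.001 in HaCaT-vector. In HaCaT-p65 1 gene passed (2.33%, against 0.703% of all genes). COL22A1 had 5.20, 5.04 and 5.18 in serum, against 3.63, 3.67 and 4.29 in starved HaCaT-p65, apart but below background (difference 1.27, SE 0.31, adjusted p = 0.0377). It lost its call without serum replicate 2 (1.32) or 3 (1.25) or starved replicate 1 (1.16) or 2 (1.18). Its 3 probe sets all rose, and 1 passed over probe sets. The serum and starved arrays share no date in HaCaT-p65 and HaCaT-vector. There the date term links them only through the 2 HaCaT-EGFR serum arrays that lie on another date. Without the date term 7 genes passed in HaCaT-EGFR, 7 in HaCaT-p65 and 12 in HaCaT-vector. That fit does not count the dates already removed.

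P3H2 rose in serum in HaCaT-EGFR, by 1.08, and in HaCaT-vector, by 1.82, the 1 of 17 hydroxylation and folding genes that passed in each. The integrin chain ITGA2, a collagen receptor, rose by 0.88 in HaCaT-EGFR and by 1.29 in HaCaT-p65. The same limit of dates holds for the values of HaCaT-vector and HaCaT-p65 here.

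EGF over starvation in HaCaT-EGFR changed 1 collagen gene (2.33%), against 8.8% of all genes. COL5A2, a minor fibrillar chain that limits fibril width, ranged from 4.12 to 5.11 with a median of 4.84 with EGF, against 5.09 to 6.02 with a median of 5.54 in starved cells (n = 7 each). The groups overlapped at their edges only, with a difference of -0.76 (SE 0.16, adjusted p = 0.00187). All arrays with EGF, and some without, were below the background level. Within the 3 dates that hold both, the differences were -1.36, -0.40 and -0.60. A second probe set differed by -0.26 and did not pass.

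In HaCaT-vector, EGF over starvation gave 0 of 43 genes by limma (0%, against 1.01% of all genes), with 2 at an unadjusted p under 0.05. COL5A2 had 5.21, 5.16, 5.11 and 5.26 with EGF, against 5.42, 5.28, 5.53 and 5.31 in starved HaCaT-vector (difference -0.20, adjusted p = 0.967). The difference between the lines in the response of COL5A2, HaCaT-EGFR minus HaCaT-vector, was -0.56 (SE 0.28, adjusted p = 1.00), so the responses were not shown to differ. That interaction gave 0 calls among all genes (0%), and 2 collagen genes at an unadjusted p under 0.05. ITGA2 rose with EGF in both lines, by 0.62 in HaCaT-EGFR and by 0.66 in HaCaT-vector.

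COL27A1 was the 1 collagen gene that passed with TNF-α over starvation, in both lines that received it. In HaCaT-p65, COL27A1 had 10.13, 10.11, 10.16, 10.07 and 9.59 with TNF-α, against 9.15, 9.42 and 9.38 in starved cells. The groups were apart, and the lowest TNF-α array was replicate 5, whose second description is a control, while replicate 2, taken after 8 h, had 10.11. The difference was 0.69 (SE 0.13, adjusted p = 0.00330), as 1 of 43 genes (2.33%), against 2.03% of all genes. Within the 2 dates that hold both it was 0.83 and 0.56. The call was lost without starved replicate 1, at 0.61, and with the mean of all probe sets of the gene, at 0.29 (adjusted p = 0.0778).

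In HaCaT-vector, COL27A1 had 10.39, 10.35 and 10.43 with TNF-α, against 9.52, 9.51, 9.47 and 9.43 in starved cells, far apart (difference 0.91, SE 0.14, adjusted p = 1.02e-04). Again 1 of 43 genes passed (2.33%), against 0.905% of all genes, and within the 2 dates that hold both the difference was 0.85 and 0.94. Probe sets passed in 3 of 5 in HaCaT-vector, at 0.60, 0.78 and 0.91, and in 2 of 5 in HaCaT-p65, at 0.51 and 0.69. The response in HaCaT-p65 minus that in HaCaT-vector was -0.21 (SE 0.19, adjusted p = 0.836) and did not pass. That interaction gave 0 of 43 collagen genes by limma (0.0101% of all genes passed), with 1 at an unadjusted p under 0.05. MMP13 rose with TNF-α by 1.82 in HaCaT-p65 and by 3.04 in HaCaT-vector, the 1 of 7 proteases that passed in each.

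The inhibitors were compared with the same ligand or medium without them, all inhibitor arrays being of 1 date. Gefitinib in serum over serum in HaCaT-EGFR gave 1 of 43 genes (2.33%), against 1.79% of all genes. COL27A1 had 10.05 and 10.34 with gefitinib, against 9.75, 9.22, 9.66, 9.58 and 9.51 without it, apart (difference 0.65, SE 0.17, adjusted p = 0.0374). The gefitinib arrays are 1 at 4 h and 1 at 8 h, so time is mixed within the group. The call was lost without either gefitinib array (0.80 and 0.51) or without serum replicate 4 (0.69) or 5 (0.62), the serum arrays of that date. No probe set of COL27A1 passed in this comparison when p-values were adjusted over all probe sets, and the mean of its probe sets differed by 0.20 (adjusted p = 0.492).

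U1026 with EGF over EGF, as the mean of both lines, gave 1 of 43 genes (2.33%), against 3.02% of all genes. COL27A1 had 10.04 in HaCaT-EGFR and 9.67 in HaCaT-vector with U1026. With EGF alone it ranged from 9.21 to 9.53 with a median of 9.30 in HaCaT-EGFR and had 9.29, 9.27, 9.22 and 9.33 in HaCaT-vector. Both U1026 arrays were above all EGF arrays of their line, with a difference of 0.55 (SE 0.15, adjusted p = 0.0291), lost without HaCaT-vector EGF replicate 4 (0.59) or with the mean of its probe sets (0.29, adjusted p = 0.127). With 1 array per line the lone arrays are assumed to vary like the other groups.

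Gefitinib with EGF in HaCaT-EGFR gave 0 of 43 genes by limma (0%, against 1.81% of all genes), with 1 at an unadjusted p under 0.05, and LY294002 with EGF gave 0 (0%, against 0.693% of all genes), with 0 at an unadjusted p under 0.05. COL27A1 differed by 0.28 (adjusted p = 0.481) with gefitinib and EGF, where it had 9.48 and 9.75. It differed by -0.02 (adjusted p = 0.991) with LY294002, where it had 9.36 in HaCaT-EGFR and 9.22 in HaCaT-vector. COL5A2, the gene that EGF lowered, differed by 0.94 with gefitinib in serum (adjusted p = 0.117), by 0.73 with U1026 (adjusted p = 0.126), by 0.51 with gefitinib and EGF (adjusted p = 0.436) and by 0.21 with LY294002, none of which passed. Of the proteases MMP1 fell, with a difference of -1.82 with U1026 and -2.16 with gefitinib and EGF.

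**Figure D4:**
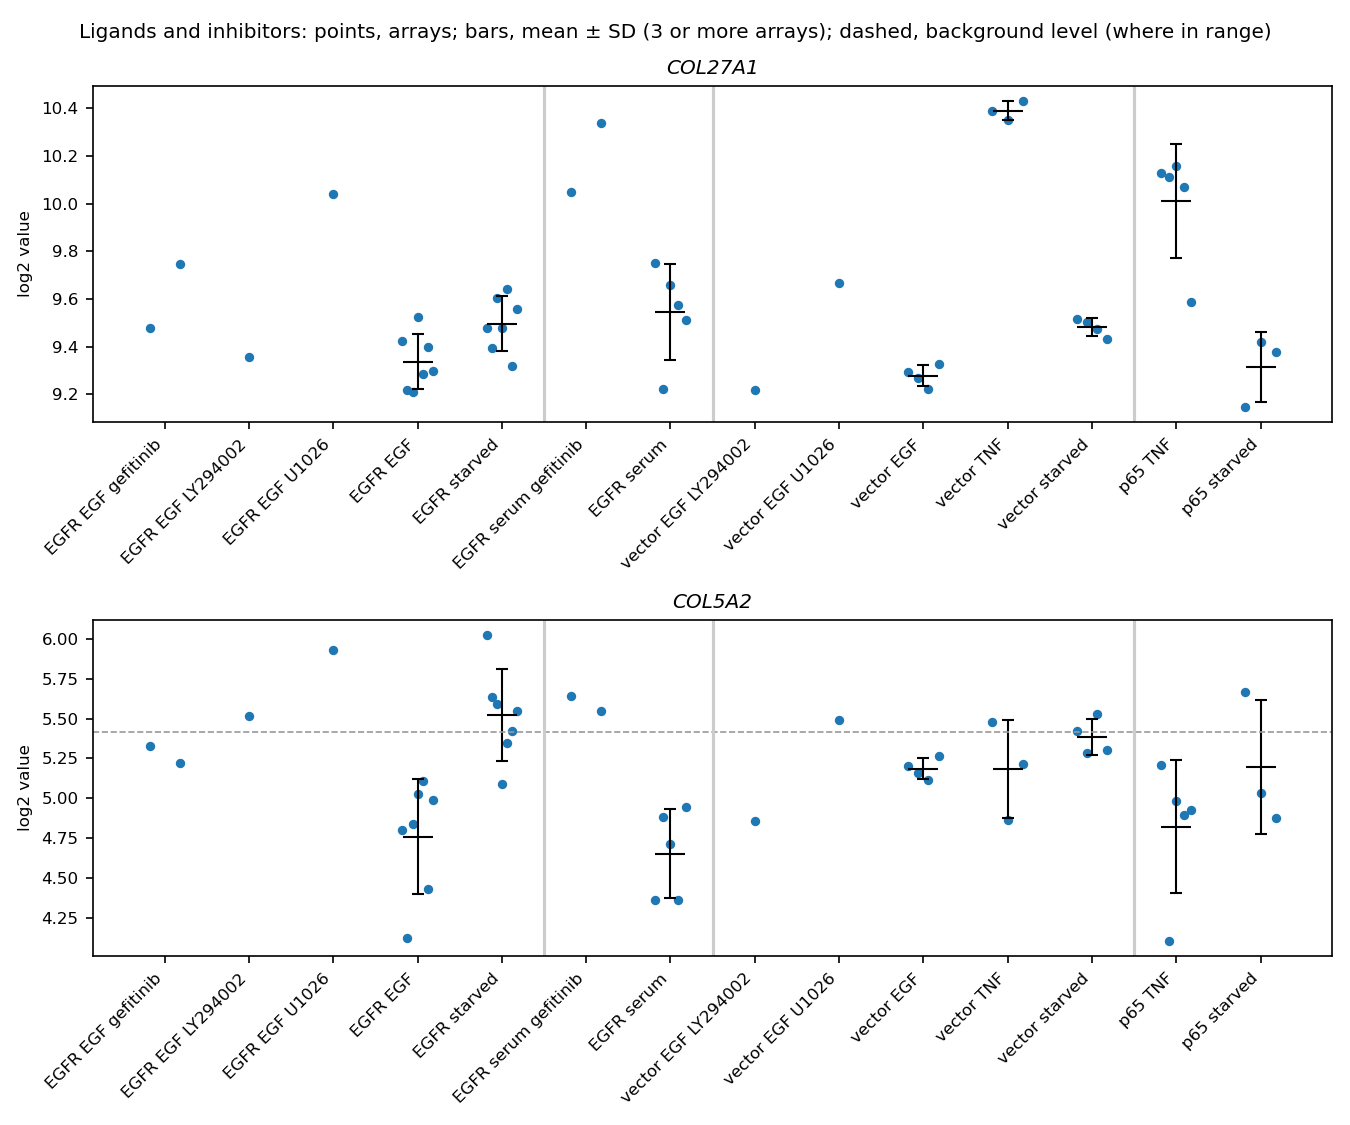
Log2 values (vertical axes) of COL27A1 and COL5A2 in HaCaT-EGFR, HaCaT-vector and HaCaT-p65 under EGF, TNF-α, starvation, serum and inhibitors (horizontal axes, with grey lines between line and medium), with arrays as points, mean ± SD as bars for groups of 3 or more arrays and the background level of 5.41 dashed where it lies in range. Every TNF-α array has COL27A1 above all starved arrays of its line, and COL5A2 is lower with EGF than in starved HaCaT-EGFR, with an overlap at the edge.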

How the data were processed

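RNA was measured on 58 arrays in 18 conditions of 5 HaCaT lines. The authors normalized them with fRMA, removed the effect of processing date that limma estimated beside condition, and deposited the log2 values, which were used unchanged. A refit left date coefficients of at most 1.17e-08. The study's sample sheet gives another RNA extraction for the date of the inhibitor arrays (Trizol) than for the other dates (Qiagen), while the labels give Qiagen for all. For RNA amplification the sheet names Nugen Ovation and the labels name One-Cycle labelling.

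Of 54675 probe sets 41097 carry 1 gene symbol, 1801 several and 11777 none. All 43 collagen genes matched the RefSeq gene table by Entrez ID and 0 symbols changed. The model had a term for each of 18 conditions and 6 dates, over all arrays, with 35 residual degrees of freedom (limma 3.58.1, R 4.3.3), with Benjamini-Hochberg adjustment over 19775 genes at 0.05, and the script was tested on simulated data. Promoters matched 31 of 43 genes. Every passing gene is named, with full statistics for at most the 6 with the largest difference, its chain partners where they did not pass, and at most 3 genes of each list. The members and lists were chosen with earlier results of these data known. Other tools were Python 3.11.15, pandas 2.3.3, numpy 2.4.6 and matplotlib 3.10.9. The number of arrays limits the precision.

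To see whether label replicate numbers pair arrays, deviations from group means were correlated between arrays of one number. The serum arrays of HaCaT-HRAS with HaCaT-vector gave 0.527, 0.239 and 0.191, and those of HaCaT-EGFR with HaCaT-vector 0.529, 0.223 and 0.216. Both were read as paired, without a stated cutoff. Some comparisons not read as paired were also positive at every number. Among them were HaCaT-p65 with HaCaT-vector in serum (0.584, 0.0844 and 0.131) and EGF with starvation in HaCaT-EGFR (0.0345, 0.24 and 0.437). Alternatives were the date term, the arrays fitted, a filter on dim genes, the mean of all probe sets, array scaling, the replicate block and leaving out arrays. KRT17, TP63, KRT6A, DCT, CD68, DDR1 and COLGALT2 were among the list genes not analysed here.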

Additional observations from a re-analysis of the deposited data

Results flagged for a closer look

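In groups of 4 to 10 arrays, the collagen genes that passed in some comparison gave 90 tests for an array far from the others of its group, and 8 were found, where chance gives about 1 in 20. COL10A1 had 3.45 in 1 HaCaT-EGFR array with EGF, where the others ranged from 4.05 to 4.46. It had 5.54 in replicate 1 of HaCaT-p65 with TNF-α, where the others ranged from 4.26 to 4.60. COL5A2 had 4.11 in replicate 2 of HaCaT-p65 with TNF-α, with the others from 4.89 to 5.21, and COL18A1 had 6.80 in the same array, with the others from 7.14 to 7.25. That array is the only one of its group taken after 8 h. COL27A1 had 9.59 in replicate 5 of that group, the one with a second description as a control, with the others from 10.07 to 10.16. COL3A1 had 5.83 in starved HaCaT-vector replicate 2, with the others from 5.25 to 5.34. With EGF in HaCaT-vector, COL4A2 had 8.82 in replicate 2, with the others from 8.66 to 8.68, and COL8A1 had 3.44 in replicate 1, with the others from 3.13 to 3.17.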

How the results depend on the processing

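Counts of passing collagen genes are given here where a setting moved them by over 1.5 times. Of the results, 0 reversed direction under the alternatives run. Without the date term, whose fit does not count the dates already removed, 6 passed in HaCaT-EGFR and 3 in HaCaT-p65 over HaCaT, 10 in starved HaCaT-EGFR and 7 in starved HaCaT-p65 over starved HaCaT-vector, 7, 7 and 12 with serum in HaCaT-EGFR, HaCaT-p65 and HaCaT-vector, 2 with EGF in HaCaT-EGFR, 2 with TNF-α in HaCaT-p65, 3 with gefitinib in serum and 2 with U1026. Fitting only the arrays of the groups compared gave 0 in HaCaT-vector, 4 in HaCaT-HRAS and 0 in HaCaT-EGFR over HaCaT, 2 in starved HaCaT-EGFR over starved HaCaT-vector and 0 with TNF-α in HaCaT-p65, with gefitinib in serum and with U1026. The same without the date term gave 8 in starved HaCaT-p65 over starved HaCaT-vector, 2 with serum in HaCaT-p65 and 21 with serum in HaCaT-vector. Among genes with a mean of at least 5, 4 passed in HaCaT-HRAS over HaCaT, 1 with serum in HaCaT-EGFR and 0 with serum in HaCaT-p65. The mean of all probe sets gave 4 in HaCaT-EGFR and 2 in HaCaT-p65 over HaCaT, 1 with serum in HaCaT-EGFR and 0 with TNF-α in HaCaT-p65, gefitinib in serum and U1026. Median centring gave 2 in HaCaT-p65 over HaCaT and 0 with gefitinib in serum and U1026, and quantile scaling 2 and, with gefitinib in serum, 0. Without the TNF-α array described once as a control, 2 passed with TNF-α in HaCaT-p65. In these comparisons the cause was not tested.

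The replicate block gave 3 in HaCaT-p65 over HaCaT, and on the serum arrays of 1 date, added after seeing the data, 2. It let COL4A6 pass in HaCaT-vector over HaCaT (-0.48, adjusted p = 0.0380), where the numbers were not read as pairing the arrays. Beside COL4A6 in HaCaT-EGFR over HaCaT-vector, it changed no other call in the comparisons read as paired.

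Leaving out 1 array at a time gave between 7 and 8 genes in HaCaT-HRAS, 6 and 7 in HaCaT-EGFR and 3 in HaCaT-p65, each in serum over HaCaT-vector. It gave 1 to 4 in HaCaT-vector, 6 to 8 in HaCaT-HRAS, 1 to 5 in HaCaT-EGFR and 1 to 2 in HaCaT-p65 over HaCaT. In starved HaCaT-EGFR it gave 2 to 6 and in starved HaCaT-p65 0 to 3. Serum gave 0 to 2 in HaCaT-EGFR, 0 to 1 in HaCaT-p65 and 0 in HaCaT-vector, EGF 1 to 3 in HaCaT-EGFR, TNF-α 0 to 2 in HaCaT-p65 and 1 in HaCaT-vector, and gefitinib in serum and U1026 0 to 1 each.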

Other observations

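These values were chosen after they were seen. COL10A1 lay between 4.997 and 5.57 (median 5.21) in the 13 HaCaT-vector arrays outside serum, against 3.45 to 4.66 (median 4.12) in the 18 HaCaT-EGFR arrays and 4.09 to 5.54 (median 4.53) in the 8 HaCaT-p65 arrays outside serum. The starved lines, HaCaT-EGFR over HaCaT-vector, differed by -1.14 for this gene (adjusted p = 0.184 by limma), and 1 of the 13 HaCaT-vector arrays was above the background level. COL13A1, a transmembrane collagen, has 1 probe set other than the one chosen for it that rose by 1.34 in HaCaT-HRAS over HaCaT-vector, both in serum (adjusted p = 2.50e-04 over probe sets) and fell by 2.15 in HaCaT-EGFR over HaCaT-vector (adjusted p = 2.28e-07). The chosen probe set differed by 0.34 and -0.64 in the same comparisons and passed in neither.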
